A study of Mus musculus with 3 samples.

Results

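Notch signalling genes were followed across the cell types of the pregnant mouse uterus. The 9 genes are the ligand genes Dll4, Jag1 and Jag2, the receptor genes Notch1, Notch2, Notch3 and Notch4, and the target genes Hey1 and Hes1, chosen by symbol among the 32247 gene symbols of the deposited matrix. All 9 were found, with 7214 UMIs between them in the cells analysed (a UMI, or unique molecular identifier, tags a single captured transcript). The series is about the uterine microenvironment in early pregnancy and holds 3 single-cell samples of whole uterus, each from females kept with littermates until week 8, mated, and dissected on pregnancy day 7.5. The sample analysed carries no genotype in its labels. A Prl8a2icre/+ Sun1-GFPLsL/+ sample and a Sun1-GFPLsL/+ sample without Cre are not analysed here. The tissue was dissociated with trypsin and run on a droplet chip with 3' chemistry.

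Notch ligands sit on the surface of one cell and bind receptors on its neighbour. Binding leads to cleavage of the receptor, whose intracellular part enters the nucleus, joins the DNA-binding protein RBPJ and switches on genes of the Hes and Hey families, which encode transcriptional repressors. In blood vessels the pathway is best known for choosing between sprouting and resting endothelial cells, for arterial identity, and for the maturation of the mural cells (pericytes and smooth muscle) that wrap the endothelium.

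The library held 2775 barcodes and 16848794 UMIs. After filtering, 1822 cells (65.7%) remained, with a median of 4519 UMIs and 1866 genes per cell, in 22 clusters. Of these 21 were named from markers and fell into 10 classes, and 1 cluster of 38 cells stayed unnamed. The Notch genes were left out of the clustering, so that they did not define the classes described here. The vessel wall gave 67 endothelium-like and 35 pericyte-like cells. Stroma gave 418 undifferentiated stroma-like and 150 decidual stroma-like cells, and the linings gave 375 epithelium-like and 89 mesothelium-like cells. The immune cells were 314 NK cell and innate lymphoid-like, called NK-like for short, 270 mononuclear phagocyte-like, 43 T cell-like and 23 B cell-like. Levels are UMIs of a gene per 1000000 UMIs of a class (CPM), with exact Poisson 95% intervals. There is 1 library and cells are not replicates, so no p-value is given, and the intervals cover counting error and not the variation between animals. A gene was compared between groups of cells when both together held at least 50 of its UMIs. It was called higher or lower where the ratio of CPM reached 2-fold and its 95% interval excluded 1. Values are compared between cells for the same gene only. Genes annotated on the opposite strand overlap Dll4, Notch1, Notch3 and Notch4, and how the counting treated strand was not stated in the sources used.

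The names of the vessel wall classes were checked against their defining markers. Endothelium-like cells held Pecam1 at 1009 CPM and Cdh5 at 1023 CPM, and pericyte-like cells held 0 UMIs of Pecam1, Cdh5, Tie1 and Cldn5. Pericyte-like cells held Rgs5 at 15761 CPM and Pdgfrb at 1218 CPM, against 7.72 and 1.93 CPM in endothelium-like cells. Over the whole lists, 6 of 10 endothelial markers were detected in pericyte-like cells at a summed 499 CPM, and 4 of 7 pericyte markers in endothelium-like cells at 19.3 CPM. Smooth muscle markers were present in the same cells, with Acta2 at 1170 CPM and Myh11 at 460 CPM, and pericytes and smooth muscle were not divided further. Decidual stroma-like cells held Tdo2 at 2408 CPM and Dio3 at 589 CPM, against 22.2 and 3.92 CPM in undifferentiated stroma. The decidual markers Htra1 and Cdh11 went against that name, with 8.24 and 461 CPM against 102 and 2062 CPM, and Prl8a2 was counted once. Over the whole lists, decidual markers summed to 5366 CPM in decidual and 2752 CPM in undifferentiated stroma, while undifferentiated markers were as high in decidual stroma, at 5569 against 5472 CPM. Of the decidual clusters, cluster 17 went against its name on these sums, with decidual markers at 3188 CPM against 3305 CPM in the undifferentiated cluster 6, and undifferentiated markers at 5692 against 4226 CPM. Only 3 of 1825 cells (0.164%) were called doublets, so undetected doublets may remain.

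The promoters of 4 genes that mark the vessel wall in these data are shown first: Dll4 and Notch4, whose counts lay mostly in endothelium-like cells, and Notch3 and Hey2, a target gene outside the 9, whose counts lay mostly in pericyte-like cells. They are RefSeq sequences on GRCm38.p6, 5' to 3' on the gene's own strand, and end just before the RefSeq start of the gene, or 3 bases past it for Hey2. The windows are chr2:119325534-119325783 (plus strand) for Dll4, chr17:34564045-34564294 (plus) for Notch4, chr17:32166891-32167140 (minus) for Notch3 and chr10:30842781-30843033 (minus) for Hey2. Capitals mark TGGGAA, the core of the motif bound by RBPJ, searched on both strands, and TTCCCA is the same motif on the other strand.
Dll4 promoter: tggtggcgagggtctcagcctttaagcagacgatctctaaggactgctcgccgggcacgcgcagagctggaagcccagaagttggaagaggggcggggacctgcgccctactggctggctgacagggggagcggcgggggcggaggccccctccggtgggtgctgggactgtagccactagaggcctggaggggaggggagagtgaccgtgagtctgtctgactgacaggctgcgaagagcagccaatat
Notch4 promoter: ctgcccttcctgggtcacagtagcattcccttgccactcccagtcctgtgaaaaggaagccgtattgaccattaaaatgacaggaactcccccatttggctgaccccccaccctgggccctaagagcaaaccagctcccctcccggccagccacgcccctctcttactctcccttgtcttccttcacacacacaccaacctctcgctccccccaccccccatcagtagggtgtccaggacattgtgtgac
Notch3 promoter: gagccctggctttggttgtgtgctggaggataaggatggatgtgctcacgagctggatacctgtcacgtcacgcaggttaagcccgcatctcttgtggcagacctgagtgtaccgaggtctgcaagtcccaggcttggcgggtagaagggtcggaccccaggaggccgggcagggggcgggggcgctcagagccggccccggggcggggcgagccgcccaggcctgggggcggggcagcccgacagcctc
Hey2 promoter: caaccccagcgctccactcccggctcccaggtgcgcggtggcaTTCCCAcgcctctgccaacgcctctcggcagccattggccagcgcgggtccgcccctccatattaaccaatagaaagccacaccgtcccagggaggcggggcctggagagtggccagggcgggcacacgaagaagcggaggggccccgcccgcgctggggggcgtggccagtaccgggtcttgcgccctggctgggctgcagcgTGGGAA
Hey2 held 2 matches, at -207 on the minus strand and at -3 on the plus strand from the start. The second match ends on the 3 added bases, and a window ending at the start, as for the other genes shown, would cut it. Of the 9 members, 7 had a promoter in the table (Hes1 and Hey1 had none), and 0 of these 7 held TGGGAA within the window of 300 bases. The same letters occurred in 25.4% of 32544 mouse promoters of that length. The E box CACGTG occurred in 0 of the 7 and in 7.17% of all promoters, and CGGAAG, the core of ETS motifs, in 1 of the 7 and in 17.0% of all promoters. A match is a run of letters and not a measured binding site.

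The first question was which cells hold the ligands. Endothelium-like cells carried all 3 ligand genes, pericyte-like cells carried Jag1 alone among them, and epithelium-like cells carried Jag1 at a lower level. Dll4, the ligand that restrains sprouting in its endothelial neighbours, lies at chr2:119325784-119335962 on the plus strand (GRCm38). Endothelium-like cells held 72 of its 84 UMIs (139 CPM, 109 to 175). Mononuclear phagocyte-like cells came next with 5 UMIs (3.95 CPM, 1.28 to 9.22), and pericyte-like, decidual, mesothelium-like, T cell-like and B cell-like cells had 0. A count of 0, read as fewer than 3 counts over the class, allows up to 11.8 CPM in pericyte-like cells and 2.06 CPM in decidual cells. Dll4 was thus counted almost entirely in 1 class, 35.2-fold above the next (14.4 to 112).

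Jag2 (chr12:112907819-112929776, minus strand), a Jagged ligand also found on arterial endothelium and immune cells, followed. Endothelium-like cells held 116 of its 159 UMIs (224 CPM, 185 to 269). Mononuclear phagocyte-like cells held 23 UMIs (18.2 CPM, 11.5 to 27.3), and the other classes between 0 and 6.02 CPM. Within the phagocytes 15 of the 23 UMIs fell in cluster 21, the dendritic-like cluster led by Itgae, Xcr1 and Clec9a, where Jag2 reached 66.2 CPM (37.1 to 109) and was found in 10 of 22 cells. The monocyte-like cluster 3 held 14.5 CPM (5.81 to 29.8) and the macrophage-like cluster 12 held 1.80 CPM. Cluster 21 also had the greatest depth of the 3, with a median of 10753 UMIs per cell against 1471 and 6052, which the CPM takes into account and the share of cells does not.

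Jag1 (chr2:137081456-137116644, minus strand), the ligand through which endothelium signals to mural cells, had 930 UMIs in 331 cells. It was highest in pericyte-like cells, at 569 CPM (481 to 670), followed by endothelium-like cells at 384 CPM (333 to 441) and epithelium-like cells at 96.6 CPM (88.2 to 105). Undifferentiated stroma held 26.8 CPM and decidual stroma 12.4 CPM. Each step in this order of 5 classes exceeded the counting interval of its ratio. From decidual stroma down, through mesothelium, T cells, phagocytes and NK cells to B cells with 0 UMIs, neighbours were within it. Because epithelium-like cells were numerous and deep, they held 494 of the 930 UMIs (53.1%) at a moderate level.

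**Figure D1:**
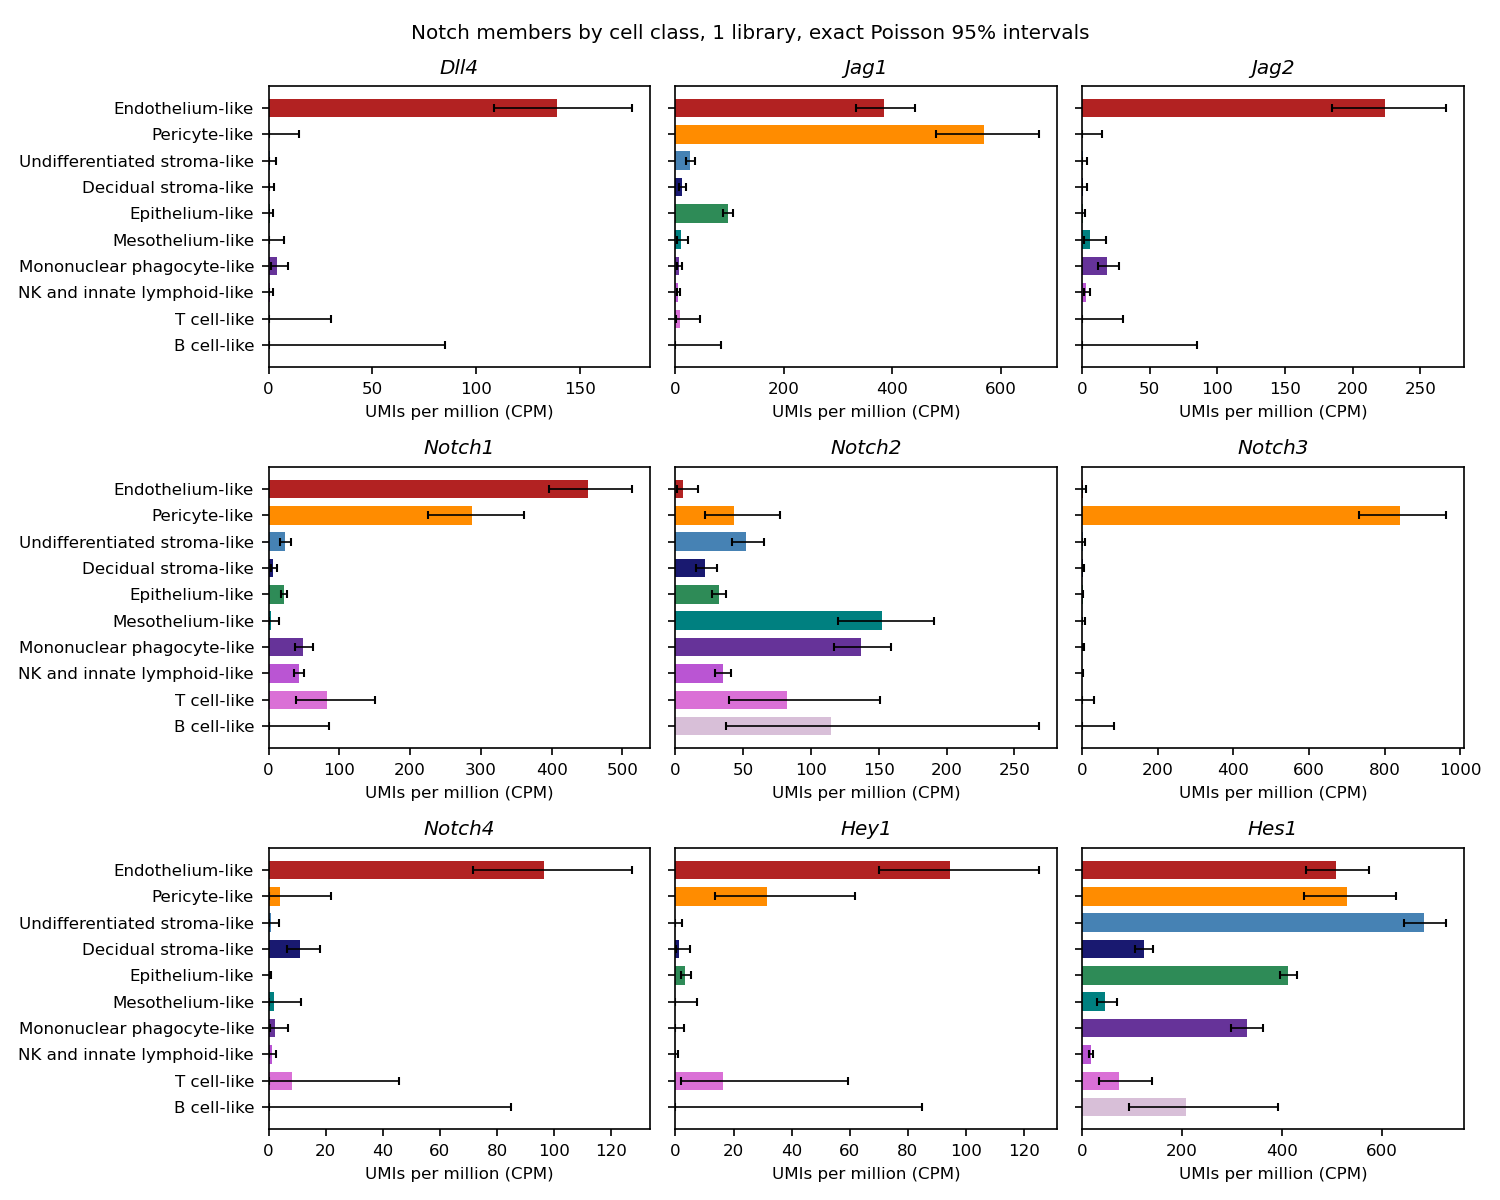
Level of each of the 9 Notch genes in CPM (linear axes that differ between panels) in 10 cell classes of 1 library. Bars are summed counts over all UMIs of a class and whiskers are exact Poisson 95% intervals. Dll4, Jag2, Notch4 and Hey1 stand highest in endothelium-like cells, Notch3 in pericyte-like cells (840 CPM), Notch2 in mesothelium-like and phagocyte-like cells and Hes1 in undifferentiated stroma (684 CPM).

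The receptors were divided between the classes. Notch1 was led by endothelium, Notch2 by mesothelium and phagocytes, Notch3 by pericytes and Notch4 by endothelium. Notch3 (chr17:32120820-32166852, minus strand), the receptor of mural cells, had 214 of its 232 UMIs in pericyte-like cells (840 CPM, 732 to 961). The next class, undifferentiated stroma, held 4 UMIs (2.61 CPM, 0.711 to 6.69), which is 322-fold less (124 to 1192). Endothelium-like cells held 1 UMI of Notch3. No single cell carried the result: the highest of the 35 pericyte-like cells held 25 of the 214 UMIs, and 30 of 35 cells had at least 1.

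Notch1 (chr2:26457903-26516663, minus strand) was highest in endothelium-like cells with 234 UMIs (452 CPM, 396 to 513). It was found in 56 of these 67 cells, with a median of 3 UMIs per cell. Pericyte-like cells followed with 287 CPM (225 to 360), then T cell-like cells with 82.0 CPM (39.3 to 151). Phagocytes held 49.0 CPM, NK-like cells 42.2, undifferentiated stroma 22.8 and epithelium 21.9. Decidual stroma at 6.18 CPM (2.83 to 11.7) and mesothelium at 4.01 CPM (0.486 to 14.5) were lowest among the classes with a UMI. T cells and phagocytes, phagocytes and NK-like cells, and undifferentiated stroma and epithelium did not differ beyond their intervals.

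Notch4 (chr17:34564268-34588503, plus strand), a receptor known mainly from endothelium, had 50 of its 77 UMIs in endothelium-like cells (96.5 CPM, 71.6 to 127). Decidual stroma came next with 16 UMIs in 11 of 150 cells (11.0 CPM, 6.28 to 17.8), at a similar level in both decidual clusters (10.2 CPM in cluster 1 and 12.7 CPM in cluster 17), while undifferentiated stroma held 1 UMI (0.653 CPM). In the same decidual cells 5 of 10 endothelial markers were detected at a summed 40.5 CPM, against 7 of 10 and 131 CPM in undifferentiated stroma. Their part in the Notch4 count was not tested. Epithelium-like cells held 0 UMIs of Notch4 in 375 cells, which by the same limit of 3 counts allows up to 0.586 CPM.

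Notch2 (chr3:98013527-98150361, plus strand), a receptor with known roles in myeloid and B cells, was lowest in endothelium, the class with the highest Notch1 level. Mesothelium-like cells held 152 CPM (120 to 191), phagocytes 137 CPM (117 to 159), B cells 115 CPM (37.3 to 268) and T cells 82.0 CPM (39.3 to 151). Undifferentiated stroma held 52.2 CPM, pericytes 43.2, NK-like cells 34.9, epithelium 31.9 and decidual stroma 22.0. Endothelium-like cells were lowest, with 3 UMIs (5.79 CPM, 1.19 to 16.9). Only the last step in this order, from decidual stroma to endothelium, exceeded the interval of the ratio (3.79-fold, 1.19 to 19.4), so that no single class stood out above the others for Notch2.

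Of the targets, Hey1 was found mainly in the vessel wall and Hes1 in every class. Hey1 (chr3:8663359-8667256, minus strand), a repressor induced by Notch in endothelium, had 49 of its 78 UMIs in endothelium-like cells (94.6 CPM, 70.0 to 125) and 8 in pericyte-like cells (31.4 CPM, 13.6 to 61.9). Epithelium-like cells held 17 UMIs (3.32 CPM), of which 11 lay in cluster 0, the glandular cluster led by Spink1, Prss29 and Prss28, at 23.1 CPM (11.5 to 41.4), in 5 of 54 cells. It had 0 UMIs in undifferentiated stroma, phagocytes, NK-like cells, mesothelium and B cells.

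Hes1 (chr16:30064384-30067796, plus strand), a repressor that answers to Notch and to other signals, had 4266 UMIs in 736 cells. Undifferentiated stroma held 684 CPM (643 to 727), pericytes 530 (445 to 628), endothelium 508 (448 to 573), epithelium 413 (395 to 431) and phagocytes 329 (298 to 362). B cells held 207 CPM (94.5 to 392), decidual stroma 123 (106 to 142), T cells 73.8 (33.7 to 140) and mesothelium 46.1 (29.2 to 69.2). NK-like cells were lowest at 17.3 CPM (13.4 to 22.0). Pericytes and endothelium did not differ beyond their interval, and neither did the neighbours from phagocytes down to mesothelium. Hes1 is also known as a rapidly induced gene, and 15 immediate early and heat shock genes were summed beside it. They came to 4212 CPM in undifferentiated stroma, 9406 in pericytes, 6468 in endothelium, 14132 in epithelium, 15321 in phagocytes, 1435 in decidual stroma and 2730 in NK-like cells. T cells, with 12785 CPM, mesothelium, with 4863 CPM, and the dendritic-like cluster 21, with 10194 CPM, also exceeded the 4212 CPM of undifferentiated stroma, with Hes1 at 73.8, 46.1 and 39.7 CPM. So did B cells, with 16792 CPM, and the monocyte-like cluster 3, with 19792 CPM, with Hes1 at 207 and 584 CPM. The part of these 15 genes in the Hes1 levels was not tested.

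**Figure D2:**
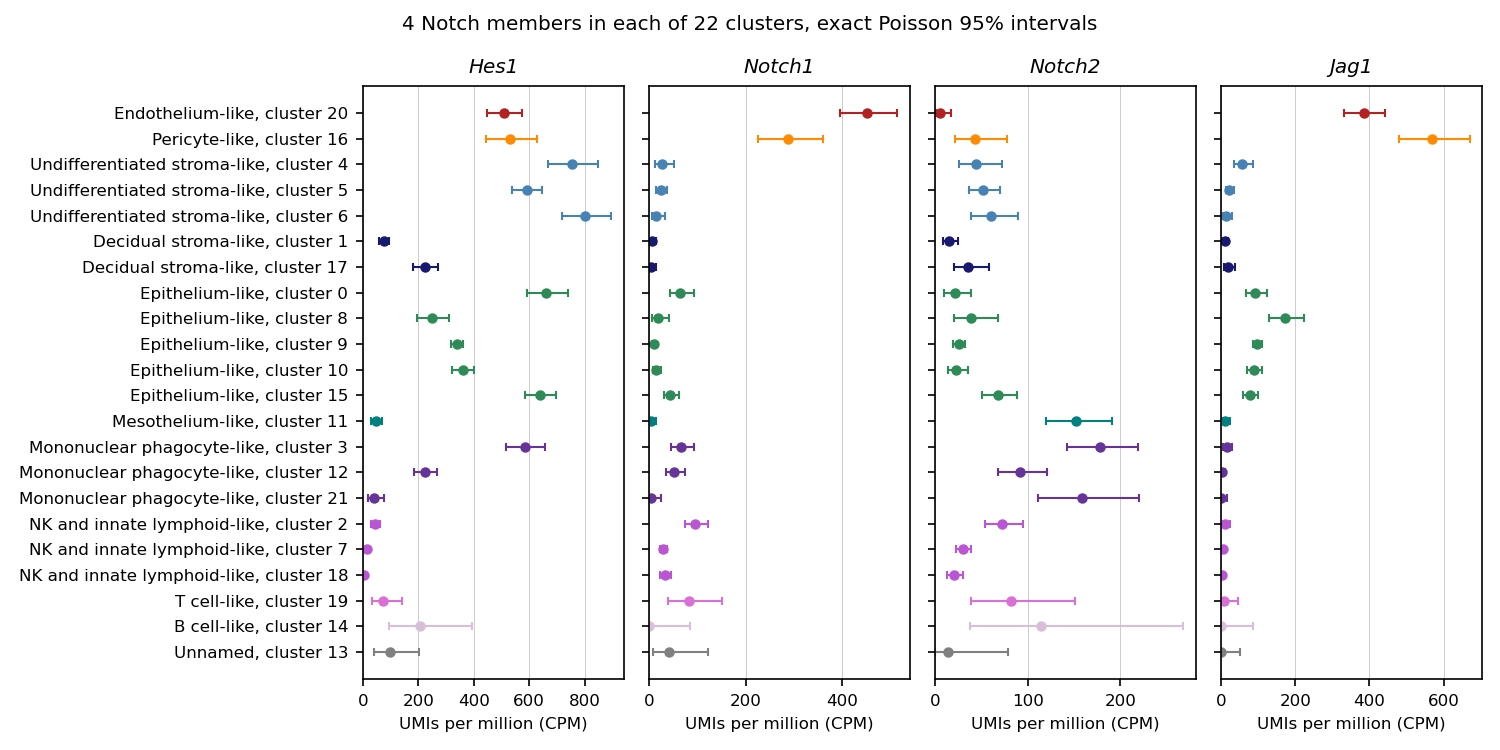
Hes1, Notch1, Notch2 and Jag1 in CPM (linear axes) in each of 22 clusters, with exact Poisson 95% intervals, coloured by class. Hes1 and Notch1 varied among clusters of the same class, as in the epithelium, phagocytes and NK-like cells, while the 3 undifferentiated clusters lay between 591 and 803 CPM of Hes1.

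Each class was then set against all other cells, a comparison in which the classes share cells with one another. In endothelium-like cells 6 of 9 members were higher, against 13.7% of 12188 genes compared, and 2 were lower, against 15.1%. Dll4 was 164-fold higher (88.4 to 332), Jag2 73.8-fold (51.6 to 107), Notch4 50.7-fold (31.1 to 84.1), Hey1 46.2-fold (28.6 to 75.9), Notch1 13.7-fold (11.7 to 16.1) and Jag1 7.45-fold (6.33 to 8.72). Notch2 was 8.34-fold lower (2.84 to 40.5) and Notch3 8.45-fold lower (1.5 to 335). For Notch3 the rest held the pericyte-like cells, with 214 of its 232 UMIs. Outside pericytes the classes lay between 0 and 2.61 CPM of Notch3, with endothelium at 1.93 CPM, so endothelium was not low among them. Hes1 was 1.80-fold higher (1.58 to 2.04), under the 2-fold minimum. The members' median log2 ratio was 3.78, against 0.10 over all genes. With every cell thinned to 2000 UMIs, Jag1 and Notch1 kept their calls, Dll4, Jag2, Notch4 and Hey1 had too few UMIs to be compared, and Hes1 passed at 2.10-fold. The Notch3 call ended in thinned cells, in cells with at most 10% mitochondrial UMIs, and when 6 endothelium-like cells with a pericyte marker and 3 pericyte-like cells with an endothelial one were left out.

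In pericyte-like cells 4 of 9 members were higher, against 10.9% of genes, and 0 were lower, against 11.7%. Notch3 was 674-fold higher (416 to 1159), Jag1 10.5-fold (8.71 to 12.5), Notch1 6.59-fold (5.10 to 8.41) and Hey1 6.48-fold (2.69 to 13.5). Notch3 reached the UMI minimum only through pericyte-like cells. Hes1 was 1.85-fold higher (1.55 to 2.20), and 2.12-fold without cells that held markers of both classes, and Notch2 was near the rest, with a ratio of 0.922 (0.458 to 1.66). Dll4 and Jag2, both at 0 UMIs, were not separated from the rest at this depth. The Hey1 call rests on 8 UMIs in 5 cells. It ended at a mitochondrial limit of 10% and in thinned cells, where pericyte-like cells had 0 Hey1 UMIs. Endothelium-like cells held 49 of the 78 Hey1 UMIs. With endothelium out of the rest, Hey1 thus fell under the UMI minimum and could not be compared. The call ended there by that minimum, whatever the ratio.

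In each of the other classes at most 1 member was higher than in the rest, which includes the endothelium, and between 0 and 8 were lower. Epithelium-like cells had 1 member higher, against 11.4% of genes (Jag1, 2.12-fold, 1.86 to 2.42), and 5 lower, against 27.8%. Once endothelium-like cells were left out of the rest, which still held the pericyte-like cells, Notch3 of these 5 stayed lower. Notch1 did not reach 2-fold. Dll4, Jag2 and Notch4 then held fewer than 50 UMIs and could not be compared. Undifferentiated stroma had 1 higher, against 19.8% (Hes1, 2.80-fold, 2.61 to 3.0), and 7 lower, against 24.2%. Decidual stroma had 1 higher, against 9.48% (Notch4, 2.38-fold, 1.28 to 4.19), and 8 lower, against 24.7%. The decidual Notch4 call ended at a mitochondrial limit of 10% and in thinned cells, and with endothelium out of the rest Notch4 was 12.7-fold higher on fewer than 50 UMIs. NK-like cells had 0 higher, against 11.6%, and 7 lower, against 34.2%, with Hes1 22.3-fold lower (17.5 to 28.9) and Jag1 16.8-fold lower (10.7 to 28.0). Mononuclear phagocytes had 1 higher, against 11.1% (Notch2, 3.57-fold, 2.99 to 4.25), and 3 lower, against 29.6%. Mesothelium had 1 higher, against 14.8% (Notch2, 3.54-fold, 2.75 to 4.50), and 4 lower, against 16.4%. T cells had 0 higher, against 7.88%, and 2 lower, against 7.91%. B cells had 0 in either direction, against 6.78% and 3.54%, on a total of 43532 UMIs. With endothelium out of the rest, Dll4, Jag2, Notch4 and Hey1 each held fewer than 50 UMIs and could not be compared. Their lower calls in decidual and undifferentiated stroma, NK-like cells, epithelium and phagocytes, wherever made, thus ended by the UMI minimum, whatever the ratio. The lower calls of Notch1 in epithelium and undifferentiated stroma ended with enough UMIs, at less than 2-fold. Notch3 was called lower in 7 classes, endothelium among them, each time against a rest that held the pericyte-like cells. Pericyte-like cells held 214 of its 232 UMIs, and without them Notch3 could not be compared.

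Endothelium and pericytes were compared directly, since ligand and receptor of neighbouring cells are the unit of Notch signalling. 8 of the 9 members had enough counts. 4 were higher in endothelium-like cells, against 20.3% of 3101 genes, and 1 was lower, against 8.19%. With 72 and 116 UMIs in endothelium and 0 in pericytes, Dll4 was at least 11.8-fold higher and Jag2 at least 19.0-fold higher, taking 3 counts over the pericyte class as the floor. Notch4 was 24.6-fold higher (4.21 to 990) and Hey1 3.01-fold higher (1.41 to 7.36). Notch3 was 435-fold lower in endothelium (77.3 to 17279). Dll4, Jag2, Notch4 and Notch3 reached the minimum of 50 UMIs only through the class in which they were higher. Jag1 (0.674, 0.542 to 0.841) and Notch1 (1.58, 1.21 to 2.08) had ratios whose intervals exclude 1 but that stay under 2-fold. Hes1 had a ratio of 0.957 (0.775 to 1.19). Among Notch targets outside the 9, Heyl and Nrarp were on the pericyte side. Heyl, a relative of Hey1, had 56 UMIs in pericyte-like cells and 0 in endothelium (at least 38.0-fold lower in endothelium). Nrarp, a feedback inhibitor, was lower in endothelium with a ratio of 0.491 (0.340 to 0.710), and Hey2 held 161 CPM (116 to 218) in pericytes and 9.65 CPM (3.13 to 22.5) in endothelium with too few UMIs for the size rule. The calls of Notch4 and Hey1 ended at a mitochondrial limit of 10%, and that of Notch4 also without the cells holding markers of both classes. Notch4 held 50 and 1 UMIs in the 2 classes and Hey1 49 and 8, near the minimum of 50. Such a call can end for lack of UMIs, whatever the ratio. In thinned cells the 4 genes called higher had too few UMIs to be compared, and Notch1 passed at 2.06-fold.

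**Figure D3:**
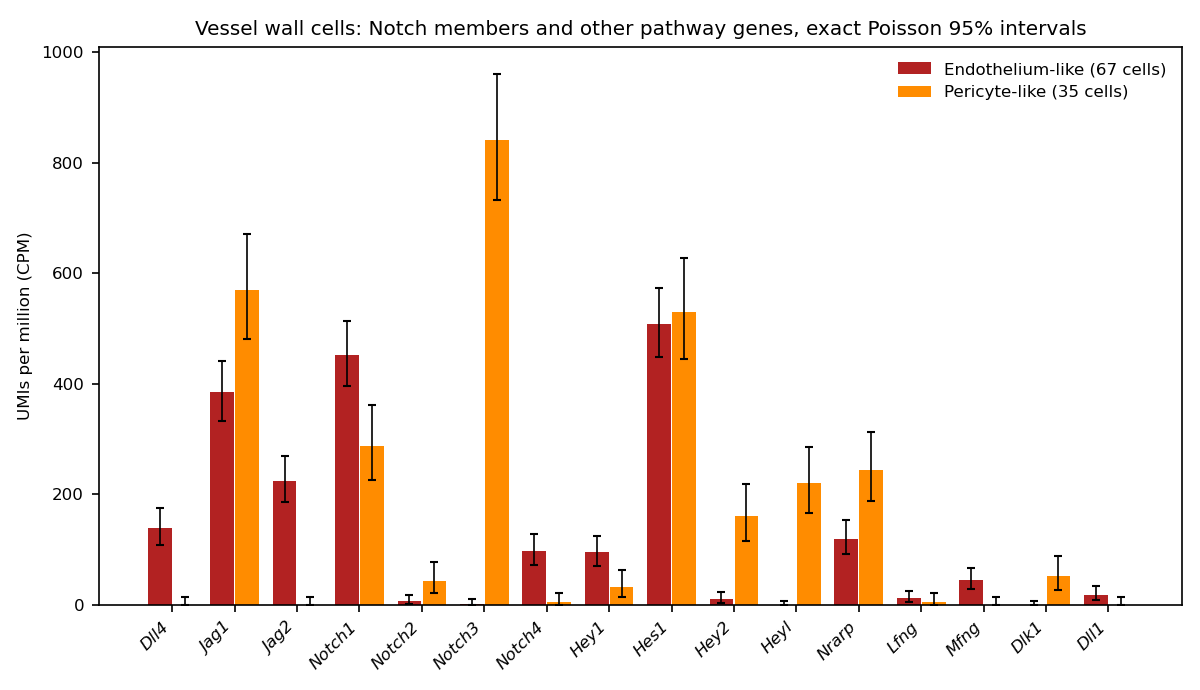
Notch genes and other pathway genes in 67 endothelium-like and 35 pericyte-like cells, in CPM (linear axis) with exact Poisson 95% intervals. Within each gene the bars may be compared: Dll4, Jag2 and Notch4 stand on the endothelial side, Notch3 (840 against 1.93 CPM), Hey2, Heyl and Nrarp on the pericyte side, and the Hes1 intervals overlap.

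Shares of cells tell the same measurements per cell. After thinning to 2000 UMIs, which left out 5 of 67 endothelium-like, 5 of 35 pericyte-like and 49 of 314 NK-like cells, Notch3 was found in 22 of 30 pericyte-like cells (73.3%, exact interval 54.1 to 87.7) and in 0 of 265 NK-like cells (up to 1.38%). Unthinned, these shares were 85.7% and 0.955%, at median depths of 5280 and 5789 UMIs. Dll4 was found in 16.1% of thinned endothelium-like cells (8.02 to 27.7), Notch4 in 12.9% (5.74 to 23.9) and Hey1 in 17.7% (9.20 to 29.5), each against 0 of 265 NK-like cells. The unthinned shares were 38.8%, 37.3% and 31.3%, against 0.637%, 0.637% and 0% in NK-like cells. Endothelium has a median depth of 6715 UMIs. The 9 thinned B cells had 0 UMIs of all 4 genes. Jag1 was found in 36.7% of thinned pericyte-like, 19.4% of endothelium-like and 19.2% of epithelium-like cells, against 1.33% of phagocytes. Endothelium and epithelium thus had shares of overlapping intervals while the Jag1 CPM of endothelium was 3.98-fold higher (3.36 to 4.70), and the highest endothelium-like cell held 40 of 199 UMIs. In decidual stroma Notch4 was found in 1 of 132 thinned cells (0.758%), too few UMIs to set against background. Unthinned, the decidual share was 7.33% (3.72 to 12.7) at a median of 6840 UMIs, against 0.637% (0.0772 to 2.28) in NK-like cells at 5789 UMIs.

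Ligand and receptor were often found in the same cell. At least 1 ligand and 1 receptor were counted in 25 of 35 pericyte-like cells (71.4%), in 43 of 67 endothelium-like cells (64.2%) and in 104 of 375 epithelium-like cells (27.7%). In pericyte-like cells Jag1 and Notch3 were found together in 25 of 35 cells and Notch1 and Notch3 in 24, which is every cell with Notch1. In endothelium-like cells Jag2 and Notch1 were found together in 34 of 67 cells and Dll4 and Notch1 in 23. In undifferentiated stroma the same pairing of any ligand with any receptor occurred in 8 of 418 cells and in decidual stroma in 5 of 150. These shares are not matched for depth.

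The endothelium-like class was not uniform. 9 of its 67 cells held at least 2 of 6 lymphatic markers, and Lyve1, Ccl21a and Reln were counted in these cells alone. Between these 9 cells and the other 58, 6 members could be compared. 1 was higher, against 6.88% of 2078 genes, and 4 were lower, against 10.7%. Notch1 stood at 982 CPM in the cells with lymphatic markers and at 401 CPM in the others (2.45-fold, 1.72 to 3.41). Jag1 was lower with 1 UMI against 198 (18.7-fold, 3.33 to 744), Dll4 with 1 against 71 (6.72-fold, 1.17 to 269), Jag2 with 4 against 112 (2.65-fold, 1.01 to 9.90) and Notch4 with 0 against 50 (at least 1.58-fold). Hes1 stood at 893 and 471 CPM (1.89-fold, 1.32 to 2.66). Median depths were 6002 and 6799 UMIs. A cut at 2 markers is a range and not a type, and 24 cells held exactly 1 marker.

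The cells without lymphatic markers were further divided by Gja5, a connexin of arterial endothelium, a split chosen after the values were seen and given as a description. The 10 cells with a Gja5 UMI also held more of the arterial markers Sema3g (759 against 95.1 CPM) and Gja4 (337 against 64.4 CPM) than the other 48. Of the 5 venous markers, Selp (0 against 101 CPM), Nr2f2 (60.4 against 171), Ackr1 (0 against 8.39) and Ephb4 (69.0 against 92.3) had lower levels in the cells with Gja5, and Vwf a higher one (86.3 against 53.2). Jag1 stood at 1441 CPM in these 10 cells and at 86.7 CPM in the other 48 (16.6-fold, 11.3 to 25.2), so that 10 cells held 167 of the 199 endothelial Jag1 UMIs. Dll4 stood at 302 and 101 CPM (3.0-fold, 1.83 to 4.91), Jag2 at 432 and 173 CPM (2.49-fold, 1.68 to 3.67) and Notch4 at 190 and 78.3 CPM (2.42-fold, 1.32 to 4.39). 4 of 6 members compared were higher, against 5.06% of 1858 genes. Hes1 was lower, at 199 and 560 CPM (2.82-fold, 1.83 to 4.55), with 9.36% of genes lower. Notch1 had a ratio of 1.26 (0.901 to 1.73). The cells with Gja5 were deeper, with a median of 8672 UMIs against 6232, and a UMI of Gja5 is found more easily in a deep cell.

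**Figure D4:**
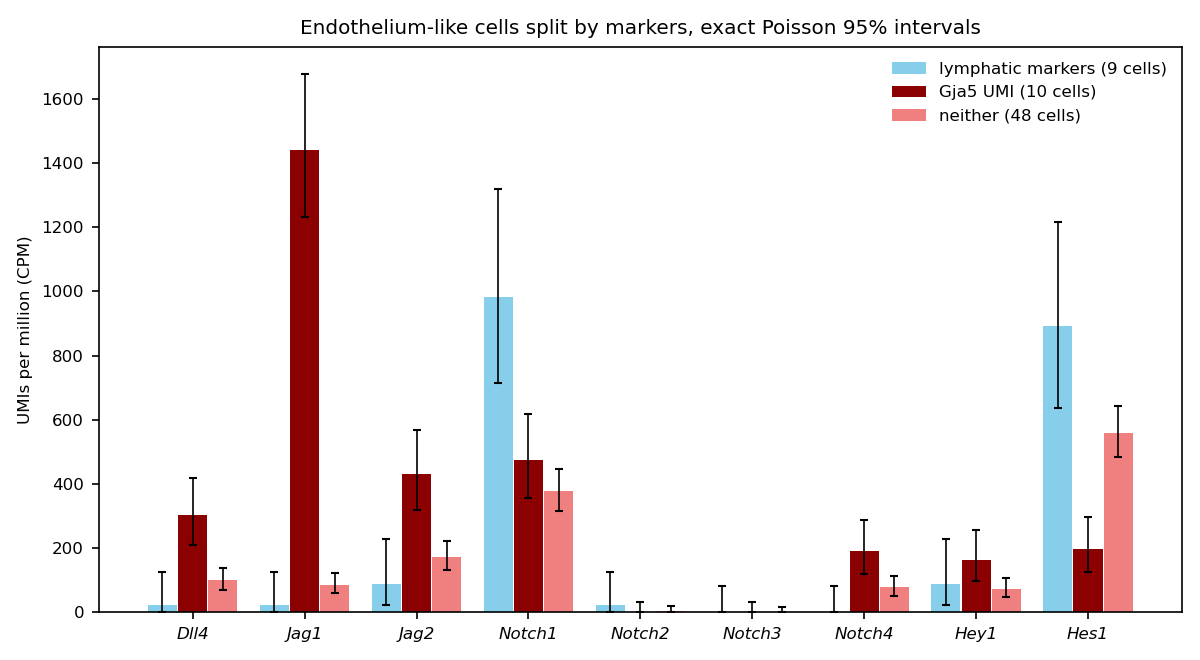
The 9 Notch genes in 3 groups of endothelium-like cells, 9 with at least 2 lymphatic markers, 10 without them and with a Gja5 UMI, and 48 with neither, in CPM (linear axis) with exact Poisson 95% intervals. Jag1 rises above the other groups in the cells with Gja5 (1441 CPM), and Notch1 is highest in the cells with lymphatic markers (982 CPM).

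Decidual stroma was compared with the undifferentiated stroma from which it arises. 3 of the 9 members had enough counts, 0 were higher, against 8.57% of 7466 genes, and 3 were lower, against 18.3%. Hes1 stood at 123 CPM in decidual and 684 CPM in undifferentiated stroma (5.57-fold lower, 4.75 to 6.56). It was lower in both clusters named decidual, at 75.1 CPM in cluster 1 and 223 CPM in cluster 17, whose marker sums go against that name, than in each of the undifferentiated clusters 4, 5 and 6, at 754, 591 and 803 CPM. Between the decidual clusters Hes1 was lower in cluster 1 (2.96-fold, 2.18 to 4.05), the single member compared, against 6.81% of 4300 genes lower and 21.2% higher. Notch2 stood at 22.0 and 52.2 CPM (2.38-fold lower, 1.56 to 3.70) and Jag1 at 12.4 and 26.8 CPM (2.17-fold lower, 1.22 to 4.0). The members' median log2 ratio was -1.25, against -0.31 over all genes. The Hes1 call was kept in each of 13 alternatives, not all of which could have ended it. The looser fold and UMI rules among them cannot remove a call. Leiden resolutions of 0.5 and 2 left the classes at 150 decidual and 418 undifferentiated cells, as in the main setting, and so tested little. The centring of marker scores that named the stromal clusters was not among the alternatives. Median centring had named clusters 4 and 6 decidual, the clusters with Hes1 at 754 and 803 CPM. The Hes1 call was not tested under that naming and depends on it. The Notch2 and Jag1 calls ended with cluster 17 alone and in thinned cells, where the Jag1 ratio turned to 1.18. The Notch2 call also ended with the mean of per-cell CPM, and the Jag1 call without cluster 4 or at a mitochondrial limit of 10%. Decidual cells had a median mitochondrial share of 11.9% against 4.30% and a median of 6840 UMIs against 3304, and the part of these in the results was not tested.

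Variation within other classes concerned Hes1, Notch1 and Notch2. In the epithelium Notch1 was higher in the glandular cluster 0 (65.1 CPM, 3.73-fold over the other epithelial clusters, 2.38 to 5.71), which made 1 of 4 members higher, against 7.68% of genes, and 0 lower, against 14.2%. In cluster 15, led by Lcn2 and Cxcl5, Notch1 (44.2 CPM, 2.46-fold, 1.59 to 3.73) and Notch2 (67.6 CPM, 2.65-fold, 1.86 to 3.71) were higher, 2 of 4 against 9.94% of genes, with 0 lower against 4.34%. In cluster 9, led by Ces2b and Mmp7, Notch1 was lower (10.2 CPM, 3.39-fold, 2.18 to 5.45), 1 of 4 against 6.35% of genes, with 0 higher against 1.15%. Jag1 ranged from 77.9 to 172 CPM over the 5 epithelial clusters, and the highest, cluster 8 (129 to 225), lay above the intervals of the other 4. Cluster 8 had a median mitochondrial share of 16.8%, and its part was not tested. In NK-like cells 3 of 3 members compared were higher in cluster 2, led by Ifng and Cd7, than in the granzyme-rich cluster 7 and the cycling cluster 18 together, against 14.1% of 7004 genes, and 0 were lower, against 16.7%. Notch1 stood at 95.3 CPM there (3.13-fold, 2.25 to 4.33), Notch2 at 72.2 CPM (2.71-fold, 1.87 to 3.90) and Hes1 at 44.8 CPM (3.99-fold, 2.38 to 6.66). The Notch feedback gene Nrarp was also higher in cluster 2, at 104 CPM (6.24-fold, 4.31 to 9.09). In the cycling cluster 18, 2 of 3 members were lower, against 5.25% of genes, and 0 higher, against 4.18%, with Hes1 at 3.63 CPM (6.30-fold lower, 2.34 to 23.8) and Notch2 2.05-fold lower (1.29 to 3.40). Cluster 2 was shallower, with a median of 3717 UMIs per cell against 16546 in cluster 7 and 33279 in cluster 18, and by shares of cells, not matched for depth, the order was the other way. Notch1 was found in 27.8% of its cells against 38.7% and 52.9%, and Notch2 in 25.4% against 42.3% and 47.1%, so no order is read from the shares. The 15 early genes summed to 8353 CPM in cluster 2 and to 1698 and 1085 CPM in clusters 7 and 18, and their part was not tested. In phagocytes Hes1 was higher in the monocyte-like cluster 3 (584 CPM, 3.43-fold, 2.78 to 4.25), 1 of 3 members against 11.9% of genes, with 0 lower against 6.25%. It was lower in the dendritic-like cluster 21 (39.7 CPM, 9.86-fold lower, 5.14 to 21.7), where Notch1 was lower too (1 UMI, 13.3-fold lower, 2.30 to 534), 2 of 3 against 22.1% of genes, with 0 higher against 5.91%.

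The wider pathway was read from 54 further genes in 7 roles, of which 45 could be compared in each class against the rest. The list was written with earlier results of these data known and is read by its counts. In pericyte-like cells 7 were higher, against 10.9% of all genes, and 1 was lower, against 11.7%. The largest were Heyl (353-fold, 173 to 811), Hey2 (77.5-fold, 47.2 to 129) and Nrarp (17.2-fold, 12.8 to 23.0), all targets or feedback genes. Heyl and Hey2 reached the UMI minimum only through pericyte-like cells. Psenen, a subunit of the receptor-cleaving gamma-secretase, was lower. In endothelium-like cells 10 were higher, against 13.7% of all genes, and 3 lower, against 15.1%, led by Nrarp (8.31-fold, 6.15 to 11.1), the Fringe glycosyltransferase Mfng (4.37-fold, 2.68 to 6.82) and Tle2, a corepressor (4.25-fold, 1.62 to 9.50). Adam10, the protease that makes the first cut in the receptor, was 3.58-fold higher there (3.03 to 4.21), and Aph1c and Dtx2 were among the lower genes, each with 0 UMIs. In undifferentiated stroma 15 were higher, against 19.8% of all genes, and 6 lower, against 24.2%. The largest were Dtx3, a relative of the Notch regulator Deltex (4.93-fold, 4.02 to 6.02), Tle2 (3.82-fold, 1.98 to 7.06) and the coactivator Maml3 (3.31-fold, 2.75 to 3.96). Nrarp had 0 UMIs in the same cells, at least 10.3-fold lower than in the rest, beside the highest Hes1 level. Mfng and Dlk2 also had 0 UMIs there, at least 6.48-fold and 3.18-fold lower.

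In decidual stroma 5 of the 45 were higher than in the rest, against 9.48% of all genes, and 10 lower, against 24.7%, so that both counts lie near the share of all genes. Numbl, an adaptor related to Numb, was 4.16-fold higher (3.16 to 5.44) and Poglut1, which glycosylates the receptor, 2.21-fold (1.59 to 3.02), while Nrarp was 14.5-fold lower (3.98 to 121), Hey2 7.70-fold lower (1.34 to 309) and Mfng, with 0 UMIs, at least 6.13-fold lower. Dlk2, a Delta-like protein without the domain that activates receptors, had 81 of its 82 UMIs in decidual cells (55.6 CPM, 44.2 to 69.1), found in 31 of 150 cells and in both clusters (71.1 CPM in cluster 1 and 23.3 CPM in cluster 17). Against undifferentiated stroma, 34 of the 54 could be compared, 3 were higher, against 8.57% of all genes, and 9 lower, against 18.3%. Dlk2, with 0 UMIs in undifferentiated stroma, was at least 28.4-fold higher, Fbxw7, which marks the cleaved receptor for destruction, 2.09-fold (1.53 to 2.86) and Psenen 2.02-fold (1.47 to 2.79). Maml3 was lower (0.174, 0.112 to 0.261), as were Tle4 (0.374, 0.232 to 0.587) and the ubiquitin ligase gene Itch (0.392, 0.313 to 0.488). In NK-like cells 5 were higher, against 11.6% of all genes, and 14 lower, against 34.2%, with Mfng (5.97-fold, 4.28 to 8.42), Hes6 (2.95-fold, 2.19 to 3.96) and Lfng (2.83-fold, 2.19 to 3.65) highest. Dlk2, Hey2 and Heyl had 0 UMIs there, at least 9.58-fold, 8.29-fold and 7.59-fold lower, and Tle1 was 32.4-fold lower (17.0 to 71.1). In phagocytes 7 were higher, against 11.1% of all genes, and 7 lower, against 29.6%, led by Aph1c (11.7-fold, 8.06 to 17.1), Dtx4 (4.74-fold, 2.83 to 7.72) and Lfng (4.52-fold, 3.40 to 5.96), and Rbpj itself was 3.21-fold higher (2.91 to 3.54). Dlk2 and Heyl with 0 UMIs and Hey2 with 1 had the lowest ratios there. In epithelium 0 were higher, against 11.4% of all genes, and 13 lower, against 27.8%, among them Lfng, Mfng and Dlk2 with 1, 2 and 1 UMIs. Both NK-like counts and the count of lower genes in epithelium also lie near the share of all genes. Among the wider ligands Dll3 had 0 UMIs, Dner 1, Dlk1 20 and Dll1 29.

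Genes with the most similar pattern over the 22 clusters were found by Pearson's r of log2(CPM + 5) among 10652 genes with at least 100 UMIs. These points share 1 library, and r is largely set by the cluster in which a gene is high. For Dll4 they were Flt1 (0.97), Gpihbp1 and Adgrl4. For Jag1 they were Pdzd2 (0.96), Slc12a2 and Lrig1, and for Jag2 Acvrl1 (0.85), Pkn3 and Rasip1. For Notch3 they were Olfr558 (0.97), Myh11 and Ndufa4l2, for Notch1 Nudt4 (0.78), Cd93 and Nrarp, for Notch2 Gm9993 (0.81), Il18 and Bcl6, and for Notch4 Eogt (0.85), Vamp5 and Lyve1. For Hey1 they were Sox13 (0.84), Gja5 and Emcn, and for Hes1 Tmem63b (0.86), Lamp2 and Med13l. Gpihbp1, Adgrl4, Flt1 and Emcn were among the leading genes of the endothelium-like cluster, and Olfr558, Myh11 and Ndufa4l2 among those of the pericyte-like cluster.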

How the data were processed

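The authors deposited a matrix of raw UMI counts, whole numbers for each gene in each barcode. Per the file headers the counting software was Cell Ranger 4.0.0, and mm10 was the genome per the submitters' processing notes. Annotation release, cell calling and strand setting were not stated in the sources used. No barcode had under 500 UMIs. Rows of the same symbol were summed, giving 32247 symbols from 32287 features.

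Cells with at least 500 genes and at most 20% mitochondrial UMIs were kept (1825 of 2775 barcodes), and 3 doublet calls were dropped at an expected rate of 5%. With scanpy 1.11.5 under Python 3.11.15, counts were scaled to 10000 per cell, logged, reduced to 2000 variable genes and 30 components and clustered by Leiden (15 neighbours, resolution 1). The 9 members and 54 further Notch genes were left out of clustering. Clusters were named from 174 markers in 23 sets, none of them a Notch gene, by mean scores. The centring of these scores was set after values were seen, since median centring had named the stromal clusters 4 and 6 decidual. CPM, shares and ratios were computed with numpy 2.4.6 and scipy 1.17.1, with exact Poisson, Clopper-Pearson and conditional binomial 95% intervals, all of counting error only. A fold against 0 UMIs, given as at least, is set by 3 counts over the group. It leaves out the counting error of the other side, so it is not a 95% bound, and the interval can reach lower. Thinned shares use 2000 UMIs per cell, leaving out shallower cells. The statistics were tested on simulated data. The named genes are the 9 members and, of the wider list, up to 3 called genes with the largest change in each direction of a class comparison. One gene of those is not reported here, mesothelium, T and B cells are left out for the wider list, and Adam10, Rbpj and Tle1 were singled out after their values were seen. The members and lists were chosen with earlier results of these data known. With 1 library, barcodes shared between libraries cannot be counted.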

Additional observations from a re-analysis of the deposited data

Results flagged for a closer look

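Notch genes were also counted outside the cells analysed. The 953 barcodes left out by the filters held 765 UMIs of the 9 members. Jag1 stood at 79.7 CPM there and at 63.3 CPM in the kept cells, Hes1 at 194 and 290 CPM, and Dll4 at 0.463 and 5.72 CPM. The matrix also carries rows for added sequences. The reporter row sfGFP-Myc had 25 UMIs in 16 barcodes, of which 22 UMIs lay in kept cells (1.48 CPM over all barcodes, against 0.178 CPM for 3 counts), in a library whose labels give no genotype, and the iCre row had 1 UMI.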

How the results depend on the processing

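No paired analysis was possible because each group has 1 library. Of the counts of called genes, 158 values under alternatives stayed within 1.5 times the reported count and 25 moved. Of the levels of members, 945 stayed within the reported interval and 72 moved out of it. Of the 72, 37 were in thinned cells and 23 with the mean of per-cell CPM. The 945 include 90 values each for the 1.5-fold and 20-UMI rules and 81 with endothelium out of the rest. These settings cannot change a level. Of the ratios of members, 1050 were unchanged, counting those with no call in either setting, and 35 gained a call. A call was lost in 64, by the ratio or by too few UMIs, and 3 reversed. The 1050 include 101 values at 20 UMIs and 94 at 1.5-fold, rules that cannot remove a call. The 3 that reversed were Hey1 in pericytes against the rest (0 in thinned cells) and Jag1 in decidual against undifferentiated stroma (1.18 in thinned cells). The last was Jag2 in NK-like cells against the rest (1.05 without endothelium, on fewer than 50 UMIs). In cells thinned to 2000 UMIs the members higher in endothelium went from 6 to 3, those higher in endothelium than in pericytes from 4 to 1, those lower in endothelium from 2 to 1, in epithelium from 5 to 2 and in decidual stroma from 3 to 1. Thinning also lowered the wider-list counts to 5 for endothelium, 3 for pericytes, 7 for epithelium, 0 for endothelium against pericytes and 5 for decidual against undifferentiated stroma, with fewer UMIs to compare by construction. At most 10% mitochondrial UMIs gave 2 members higher in endothelium than in pericytes and 1 lower in endothelium than in the rest, as did leaving out cells with markers of both classes for the latter (1). Epithelium had 1 lower member, Notch3, with endothelium out of the rest and pericytes still in it. Dll4, Jag2 and Notch4 could not be compared there. At 1.5-fold epithelium had 2 higher members. Cluster 17 alone gave 1 lower member and 7 wider-list genes in the decidual comparison. With the mean of per-cell CPM, where the fold alone decides, pericytes had 2 lower members and 17 wider-list genes. The wider list between endothelium and pericytes gave 7 genes with that mean, 7 with looser cell filters, 8 at 20 UMIs and 8 at 1.5-fold, against 4, and at 1.5-fold the decidual comparison and epithelium gave 22 each. The share of all genes called was not computed under the alternatives. Whether these counts moved more than genes at large thus cannot be told. The cause was not tested except where stated. The alternatives that left out cells with markers of both classes, cluster 4 or cluster 8, and the division by Gja5, were chosen after seeing the data. With 1 library, animals cannot be compared, and classes of under 50 cells rest on few UMIs: pericyte-like cells numbered 24 at the stricter and 45 at the looser mitochondrial limit.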
